A study of Mus musculus with 6 samples.

Results

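The Egr and Nr4a transcription factors measured here were Egr1, Egr2, Egr3, Nr4a1, Nr4a2 and Nr4a3, 6 of the 32285 genes in the deposited matrices, and all 6 were found by their symbols. Their levels were followed by scRNA-Seq in midbrain CD45+ cells of Line 61 mice, with 1 library for each of 4 conditions. All mice carried full-length human α-Syn driven by the Thy-1 promoter, a neuronal driver, so the immune cells studied here are not where the transgene is meant to act, and there was no group without the transgene. The mice were male, were injected in the striatum at 12 to 15 weeks of age, and their midbrains were collected 6 weeks later. The PBS group received buffer, the Monomer group monomeric human α-Syn, and the PFF + VH and PFF + AZD1480 groups preformed human α-Syn fibrils. From week 2 after the fibrils, the PFF + VH group was gavaged daily with dilute DMSO as vehicle and the PFF + AZD1480 group with 25 mg/kg of AZD1480, an inhibitor of the kinases JAK1 and JAK2. Each sample pooled 3 to 5 midbrains, so no value belongs to 1 mouse. The PFF + VH library carried 4 hashtags and the PFF + AZD1480 library 5, antibody-borne barcodes that mark which sample a cell came from, and each hashtag was taken as 1 replicate. PBS and Monomer had no hashtags and therefore no replicate error. Library and condition cannot be told apart.

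The EGR proteins are zinc-finger transcription factors and the NR4A proteins are nuclear receptors that act without a known natural ligand. Both families belong to the immediate early genes, which a cell switches on without making new protein when growth factor, calcium, cytokine or antigen receptor signals reach SRF, CREB, MEF2 or NFAT at their promoters. In T cells they are used as marks of recent antigen receptor signalling, in macrophages they answer to inflammatory stimuli, and in brain microglia (MG) they are also known to be induced while tissue is dissociated.

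Cells were assigned by the UMIs of marker genes to MG, to the monocyte and macrophage group (MM, made of border-associated macrophages (BAM), monocytes (Mono) and dendritic cells (DC)), to T and NK cells (T/NK), to B cells or to neutrophils (Neu). The PBS library held 13033 MG, Monomer 13567, PFF + VH 30829 and PFF + AZD1480 11248. MM had 258 to 335 cells in a library, T/NK 92 to 207, B cells 24 to 47 and neutrophils 11 to 41. Within MM, BAM had 166 to 251 cells in a library, Mono 25 to 54 and DC only 6 to 11, so the DC levels rest on few cells. Within T/NK, T cells numbered 66 to 123 and NK cells 16 to 90. The total depth was 99658216 to 116440449 UMIs in a library, and the median cell had 6616 to 7028 UMIs in 3 libraries but 2306 in PFF + VH, which stood apart. Any pair of libraries shared 45 to 151 cell barcodes, at most 1.03% of the smaller library. A single hashtag was found on 52.0% of the PFF + VH cells and 81.0% of the PFF + AZD1480 cells, against 19.8% and 79.9% with MULTIseqDemux, another caller.

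RefSeq start-site sequence on GRCm38.p6 was at hand for 4 of the 6 members, Egr2 and the 3 Nr4a genes. It is shown because TGACG, the core letters of the cAMP response element that CREB-type factors bind, recurs in it. In the lines that follow, capitals mark that core on either strand, and in Egr2 also 1 CArG box, the SRF motif. The bases are those ahead of the RefSeq start that lie in no GENCODE exon, written 5′ to 3′ along the gene's strand. Egr2 has 5 RefSeq entries, and the one printed was chosen for its motif count, as the first of 3 that tie, while 2 others hold no TGACG core.
Nr4a1, chr15:101266596-101266845, plus strand: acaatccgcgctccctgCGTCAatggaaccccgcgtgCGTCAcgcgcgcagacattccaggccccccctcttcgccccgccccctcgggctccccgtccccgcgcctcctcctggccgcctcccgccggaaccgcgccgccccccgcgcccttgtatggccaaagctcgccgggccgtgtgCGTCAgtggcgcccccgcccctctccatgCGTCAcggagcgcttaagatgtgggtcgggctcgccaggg
Nr4a2, chr2:57124004-57124253, minus strand: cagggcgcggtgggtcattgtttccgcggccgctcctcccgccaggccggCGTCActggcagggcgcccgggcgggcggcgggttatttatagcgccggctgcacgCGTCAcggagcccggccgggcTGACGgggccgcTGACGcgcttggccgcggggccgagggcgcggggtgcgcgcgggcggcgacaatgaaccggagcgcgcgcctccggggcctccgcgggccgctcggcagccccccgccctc
Nr4a3, chr4:48045055-48045152, plus strand: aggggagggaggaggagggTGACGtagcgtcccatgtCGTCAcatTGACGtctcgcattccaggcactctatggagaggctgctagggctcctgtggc
Egr2, chr10:67537619-67537868, plus strand: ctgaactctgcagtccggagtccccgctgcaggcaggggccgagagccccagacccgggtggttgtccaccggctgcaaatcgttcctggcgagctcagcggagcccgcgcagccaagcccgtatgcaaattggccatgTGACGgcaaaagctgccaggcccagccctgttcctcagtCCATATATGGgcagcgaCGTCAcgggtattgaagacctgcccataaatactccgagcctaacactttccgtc

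In the full 250 bases before the start, each of the 3 Nr4a genes held 4 cores, and the chosen Egr2 window held 2. For Nr4a3 only the 98 bases ahead of the first exon are shown, and they hold 3 of its 4. Of 32817 promoter windows of this length in the RefSeq table, 17.7% held at least 1 core and 0.137% held 4 or more. A CArG box was in 1.47% of them. None of the 4 windows held the full palindrome TGACGTCA, which 1.55% of all windows held, the EGR motif GCGTGGGCG (0.536%), the NR4A motif AAAGGTCA (1.34%) or the STAT motif TTCNNNGAA (7.01%). A match is a run of letters and not a measured binding site. On mm10 with GENCODE vM21, Nr4a1 spans chr15:101254269-101274795 and Egr2 chr10:67535475-67542188, and their windows lie inside introns of longer transcripts. Nr4a2 spans chr2:57106830-57124003 and Nr4a3 chr4:48045153-48086447. Egr1 is on chromosome 18 and Egr3 on chromosome 14, and no promoter entry was given for either.

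Levels are given as CPM, the UMIs of a gene scaled to a common total of UMIs in its class, and are compared for 1 gene between classes and libraries, never between genes. Egr1, the most studied member of its family, was high in MG, with 2010 CPM (PBS), 1977 CPM (Monomer), 1860 CPM (PFF + VH) and 2071 CPM (PFF + AZD1480). BAM held 1632 to 2573 CPM over the 4 libraries, a range that encloses that of MG. Below these came DC (579 to 1094 CPM), B cells (412 to 955), neutrophils (269 to 828), Mono (264 to 573), T cells (107 to 466) and NK cells (89.9 to 404), whose ranges overlap between neighbours.

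Egr2, which takes part in macrophage and T cell programmes, was highest in BAM, where PBS had 153 CPM, Monomer 132, PFF + VH 211 and PFF + AZD1480 326. MG held 77.1 to 101 CPM, below BAM in each library. DC (32.1 to 128) and Mono (23.9 to 119) overlapped MG. T/NK held 7.82 to 14.8 CPM. Neutrophils ranged from 0 UMIs in Monomer, which allows up to 66.8 CPM, to 170 CPM in PFF + AZD1480.

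Egr3, a close relative that limits T cell activation together with Egr2, was at 182 to 374 CPM in DC, 136 to 259 in MG, 70.7 to 251 in BAM and 83.1 to 305 in B cells, 4 overlapping ranges. The DC values rest on 6 to 11 cells in a library. Mono held 23.7 to 94.3 CPM. T/NK held 5.21 to 31.1 CPM.

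Nr4a1, which encodes NUR77, was high in Mono, with 793 CPM in PBS (95% Poisson interval 687 to 910), 912 in Monomer (774 to 1069), 502 in PFF + VH (418 to 597) and 1057 in PFF + AZD1480 (920 to 1209). NUR77 is known for its part in the formation of patrolling monocytes. Neutrophils spanned 252 to 1069 CPM, DC 410 to 561, BAM 327 to 753 and B cells 315 to 571, all overlapping Mono. MG held 249 to 406 CPM, and T/NK were lowest at 150 to 230.

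Nr4a2, which encodes NURR1 and is best known in dopaminergic neurons, had another order. NK cells held 629 CPM in PBS (555 to 710), 414 in Monomer (352 to 483), 208 in PFF + VH (161 to 263) and 254 in PFF + AZD1480 (170 to 365). T cells held 147 to 324 CPM, DC 116 to 301, Mono 53.7 to 204, B cells 40.7 to 141 and BAM 39.0 to 190, each range overlapping its neighbours. MG held only 10.8 to 11.6 CPM in the PBS, Monomer and PFF + VH libraries and 18.1 CPM in PFF + AZD1480, below T, NK, DC, Mono, B cells and BAM in every library. Neutrophils held 0 UMIs in PFF + VH, which allows up to 47.2 CPM, and at most 44.6 CPM elsewhere.

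Nr4a3, which encodes NOR1 and marks T cell receptor signalling, was at 64.0 to 543 CPM in DC, 113 to 339 in T cells, 76.4 to 265 in NK cells and 55.4 to 280 in BAM. The DC values rest on 6 to 11 cells in a library, and the PFF + VH value in DC on 2 UMIs. B cells, Mono, MG and neutrophils followed at 56.2 to 200, 23.9 to 138, 60.8 to 121 and 47.2 to 67.2 CPM, with overlapping ranges.

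**Figure D1:**
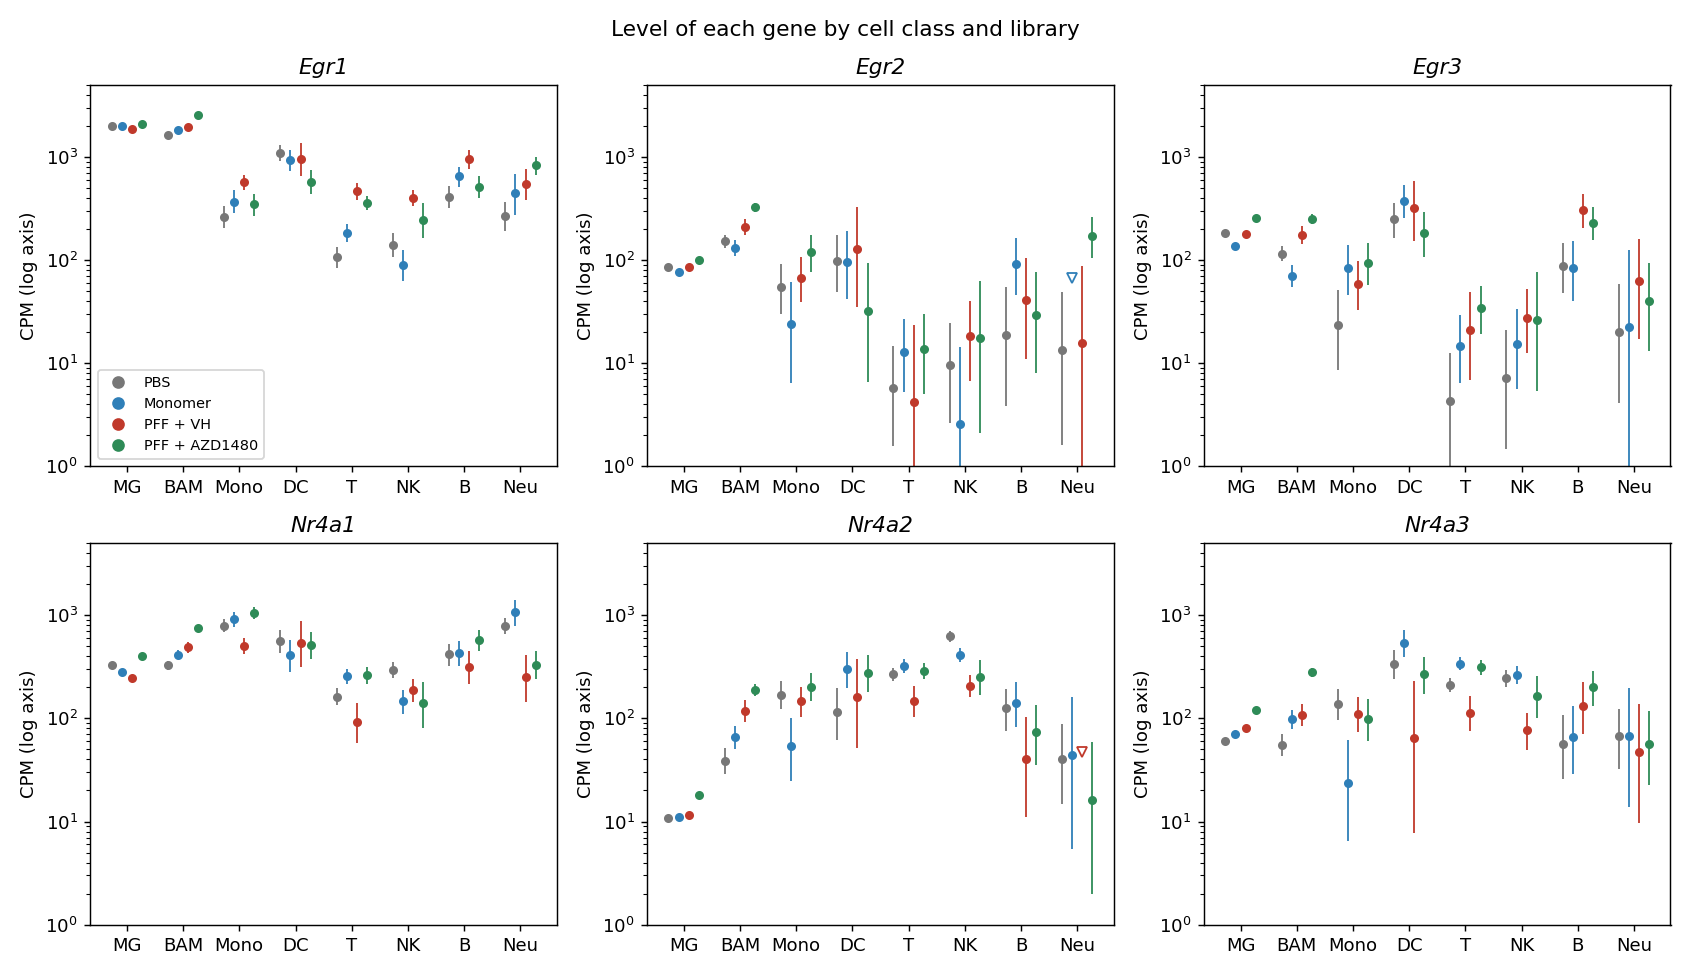
Level of each member in CPM (log axis) in 8 classes of cells and 4 libraries, with exact Poisson 95% intervals that cover counting error only; intervals below 1 CPM end at the axis, and open triangles mark the level that 3 UMIs would give where none was counted. Egr1 is high in MG and BAM, and Nr4a2 is low in MG, at 10.8 to 18.1 CPM, and high in NK cells, at 208 to 629 CPM.

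The class differences were tested over the hashtags of both PFF libraries, with each hashtag as a block, by the quasi-likelihood test of edgeR with Benjamini-Hochberg adjustment over 7423 genes. Fold changes of edgeR are given throughout as log2 differences ± a standard error worked back from the difference and its F statistic. Between MM and MG, 24% of genes were higher in MM and 23% were lower. Nr4a2 was higher in MM than in MG by 3.40 ± 0.29 (adjusted p = 1.11e-11), Egr2 by 1.29 ± 0.14 (adjusted p = 1.95e-09), Nr4a1 by 0.96 ± 0.13 (adjusted p = 3.35e-07) and Nr4a3 by 0.86 ± 0.17 (adjusted p = 6.04e-05). Egr1, with a difference of -0.16 ± 0.11 (adjusted p = 0.269), and Egr3, with -0.21 ± 0.18 (adjusted p = 0.360), did not pass, although both did with no filter on low values (-0.29 and -0.34), Egr1 with a stricter class rule (-0.38) and Egr3 without PFF + VH hashtag 1 (-0.48). In all, 4 of the 6 members were higher in MM.

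Between T/NK and MG, 21.4% of genes were higher in T/NK and 28.1% lower. Egr1 was lower in T/NK by a log2 difference of -2.52 ± 0.18. Egr2 and Egr3 entered this fit only through the classes where they are high, with at most 4 and 5 UMIs in the T/NK of a hashtag, so their levels are a description with no fold, at 0 to 65.1 and 0 to 48.8 CPM in T/NK against at least 75.9 and 152 CPM in each hashtag of MG. Nr4a2 was higher by 3.81 ± 0.40 and Nr4a3 by 0.71 ± 0.24 (adjusted p = 0.0162), while Nr4a1 was lower by -0.88 ± 0.22 (adjusted p = 0.00126). The Nr4a3 call was lost with no block (0.64), with a stricter class rule (0.36) and without PFF + AZD1480 hashtag 2 (0.66), and the Nr4a1 call was lost without that same hashtag (-0.55). Between MM and T/NK, where 22.5% of genes were higher in MM and 15% lower, Egr1 was higher in MM by 2.36 and Nr4a1 by 1.83. Nr4a2 (-0.41 ± 0.37, adjusted p = 0.434) and Nr4a3 (0.15 ± 0.26, adjusted p = 0.693) did not pass, although Nr4a3 was higher in MM with a stricter class rule (0.91, adjusted p = 0.0165). MG markers made up 13287 to 15517 CPM of MG, 2186 to 2549 CPM of MM and 576 to 2243 CPM of T/NK, lowest in PBS and highest in PFF + VH among T/NK. The level of Egr1 in T/NK had that order too, with 120 CPM in PBS and 408 CPM in PFF + VH, and the part of MG RNA in it was not tested.

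In MG, the 4 libraries were set side by side by CPM. All 6 members were highest in PFF + AZD1480, and the share over all genes was not counted. In gene lists taken up below, 11 of 13 NF-kB early genes and 13 of 30 other early response genes were highest there, and none of 13 heat shock genes. In MG of 2000 to 4000 UMIs each member was instead highest in PFF + VH. Nr4a3 stood at 60.8 CPM with PBS, 70.4 with Monomer, 81.5 with PFF + VH and 121 with PFF + AZD1480, the last being 1.999 times PBS (1.93 to 2.07). Nr4a1 stood at 327 CPM with PBS, 284 with Monomer, 249 with PFF + VH and 406 with PFF + AZD1480, and its ratio of PFF + VH to PBS was 0.761 (0.749 to 0.774). Of 13 heat shock genes, which handling can induce, 12 were highest in PBS, and 8 were lowest in PFF + VH, 3 in PFF + AZD1480 and 2 in Monomer. Among them, Hspa1b stood at 129, 51.7, 22.7 and 55.3 CPM in the same order of libraries, while Hspe1 was at 141, 122, 142 and 128 CPM. The part of handling in the library differences was not tested. Egr3 stood at 182, 136, 179 and 259 CPM across PBS, Monomer, PFF + VH and PFF + AZD1480. Over MG of all depths, Egr1 stayed within a ratio of 0.926 to 1.11 between libraries. At 2000 to 4000 UMIs it stood further apart, at 1050, 1097, 1759 and 1145 CPM in the same order of libraries. These intervals cover counting error only, and with 1 library for PBS and Monomer no test was possible. Among all genes with at least 20 CPM, 2.3% were at least 1.5 times higher in PFF + VH than in PBS and 0.613% at least as much lower. The shares were 1.73% and 0.676% between PFF + AZD1480 and PBS, where Nr4a3 passed that fold, 1.9% and 0.6% between PFF + AZD1480 and Monomer, where Egr3 (1.91) and Nr4a3 (1.73) did, and 0.734% and 1.05% between PFF + AZD1480 and PFF + VH, where Nr4a1 (1.63) did. Nr4a2, below that level, had a ratio of 1.67 to PBS.

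The effect of AZD1480 on MG was then tested over hashtags, 5 of PFF + AZD1480 and 4 of PFF + VH, on summed counts of 13527 genes. Of these genes 12.5% were higher with AZD1480 and 14% were lower. For Nr4a1, the PFF + AZD1480 hashtags 1 to 5 held 467, 420, 385, 379 and 425 CPM, and the PFF + VH hashtags 1 to 4 held 206, 298, 267 and 220 CPM. The groups did not overlap, which was also so, in the same direction, for 14.2% of all genes, with 9.76% in the other direction. Means were 415 ± 35.4 CPM (SD, n = 5) and 248 ± 42.4 CPM (SD, n = 4), and the log2 difference was 0.69 ± 0.11 (edgeR adjusted p = 0.00101).

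For Egr3, the PFF + AZD1480 hashtags held 285, 298, 244, 241 and 261 CPM against 158, 190, 229 and 152 CPM in PFF + VH. These groups did not overlap either. Means were 266 ± 25.2 and 182 ± 35.2 CPM (SD), and the log2 difference was 0.49 ± 0.12 (edgeR adjusted p = 0.0108). For Nr4a3, the PFF + AZD1480 hashtags held 131, 121, 151, 115 and 100 CPM against 68.5, 77.0, 111 and 74.3 CPM. PFF + VH hashtag 3 lay above PFF + AZD1480 hashtag 5, so these groups overlapped. The log2 difference was 0.53 ± 0.15 (edgeR adjusted p = 0.0208), and the call was lost without PFF + VH hashtag 1 (0.44, adjusted p = 0.0685), 2 (0.51, adjusted p = 0.0508) or 4 (0.47, adjusted p = 0.0660).

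Nr4a2, Egr2 and Egr1 did not pass. The Nr4a2 hashtags held 18.7, 19.6, 21.9, 19.5 and 10.5 CPM in PFF + AZD1480 against 9.61, 10.9, 18.5 and 11.1 CPM in PFF + VH, a log2 difference of 0.50 ± 0.22 (edgeR adjusted p = 0.109). The groups overlapped, with PFF + AZD1480 hashtag 5 close to most PFF + VH values and PFF + VH hashtag 3 close to most PFF + AZD1480 values. The call was gained without PFF + VH hashtag 3 (0.75, adjusted p = 0.0154), without PFF + AZD1480 hashtag 5 (0.62, adjusted p = 0.0284) or with hashtags centred within cells (0.53, adjusted p = 0.0470). It was also gained with the hashtag number as a replicate block, as given in the closing section. Egr2 had means of 103 ± 9.35 and 86.4 ± 11.8 CPM (SD), a log2 difference of 0.20 ± 0.10 (edgeR adjusted p = 0.154). Egr1 had means of 2133 ± 152 and 1862 ± 290 CPM (SD), a log2 difference of 0.14 ± 0.10 (edgeR adjusted p = 0.339). So 3 of the 6 members rose in MG with AZD1480 and none fell, against the 12.5% and 14% of all genes.

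**Figure D2:**
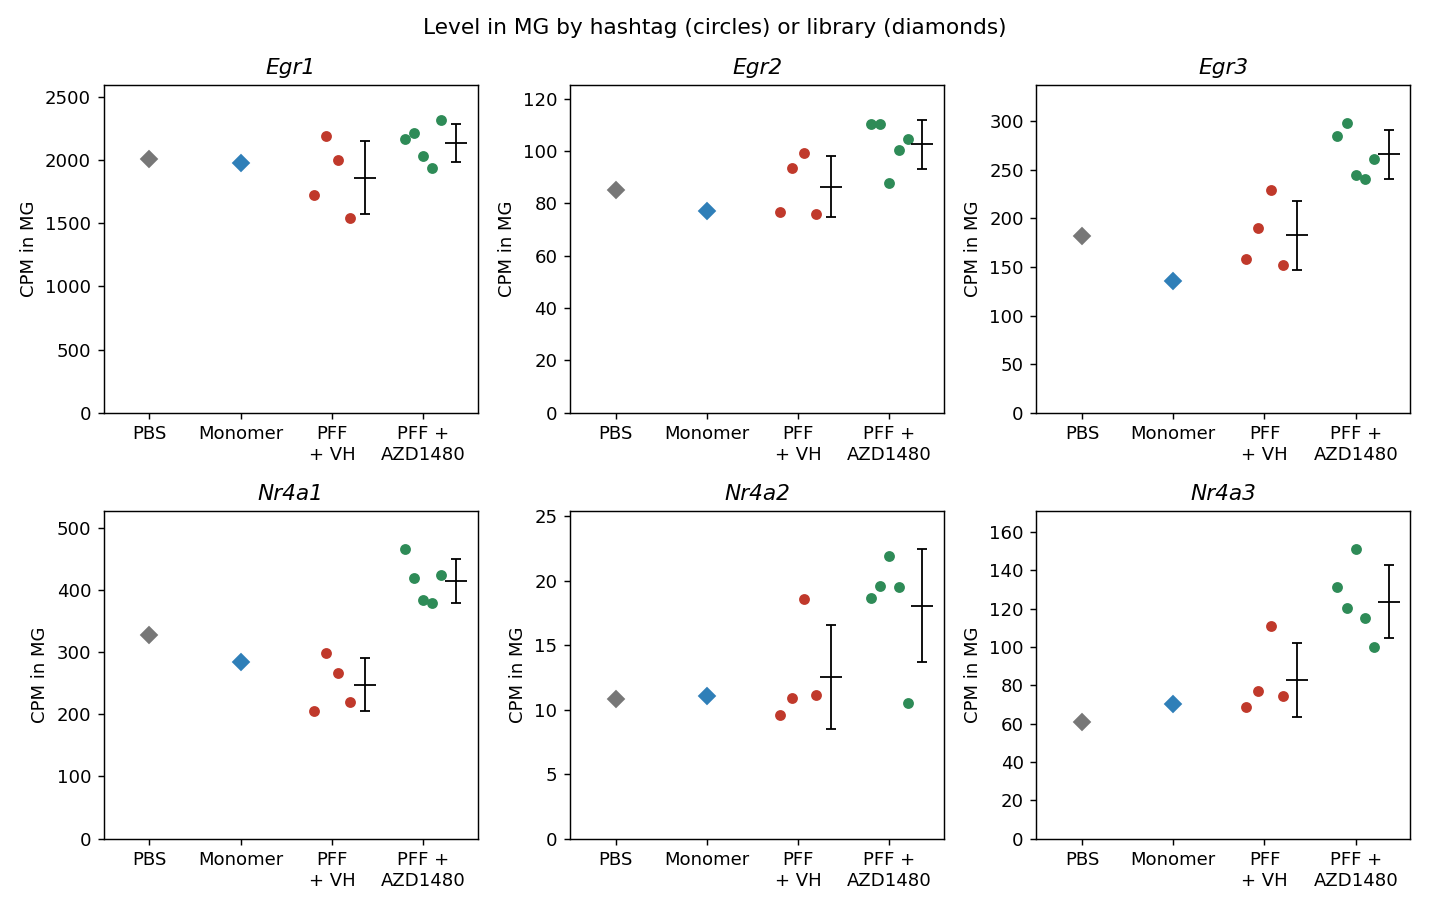
Level of each member in MG in CPM, with PBS and Monomer as 1 diamond each and each of the 4 PFF + VH and 5 PFF + AZD1480 hashtags as a circle, and black bars for the mean ± SD of the hashtags. The groups of hashtags are apart for Nr4a1 (379 to 467 against 206 to 298 CPM) and Egr3, and overlap for the other 4 members.

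The level of the members in MG also moved with the depth of a cell, and depth differed between the libraries. MG with a single hashtag had a median of 2985.5 UMIs in PFF + VH and 6894 in PFF + AZD1480. MG with no hashtag entered no replicate test and were shallower, 11344 cells with a median of 1421 UMIs and 492 with 1399.5. In these, PFF + VH and PFF + AZD1480 held 1997 and 1383 CPM of Egr1, 91.3 and 66.8 of Egr2, and 182 and 159 of Egr3. Nr4a1 stood at 257 and 342 CPM there, Nr4a2 at 10.2 and 10.4, and Nr4a3 at 80.1 and 106. In PBS, Egr1 held 1722 CPM in MG of 500 to 1000 UMIs, 1050 CPM at 2000 to 4000 UMIs and 2341 CPM at 8000 UMIs and over. Monomer and PFF + AZD1480 had the same dip in the middle, while PFF + VH was flatter, with 1712, 1759 and 2055 CPM in the same ranges. For Nr4a1 the range of 2000 to 4000 UMIs gave 159 CPM with PBS, 166 with Monomer, 231 with PFF + VH and 214 with PFF + AZD1480. At 8000 UMIs and over it gave 393, 333, 299 and 467 CPM, so PFF + VH was the highest library in the first range and the lowest in the second.

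**Figure D3:**
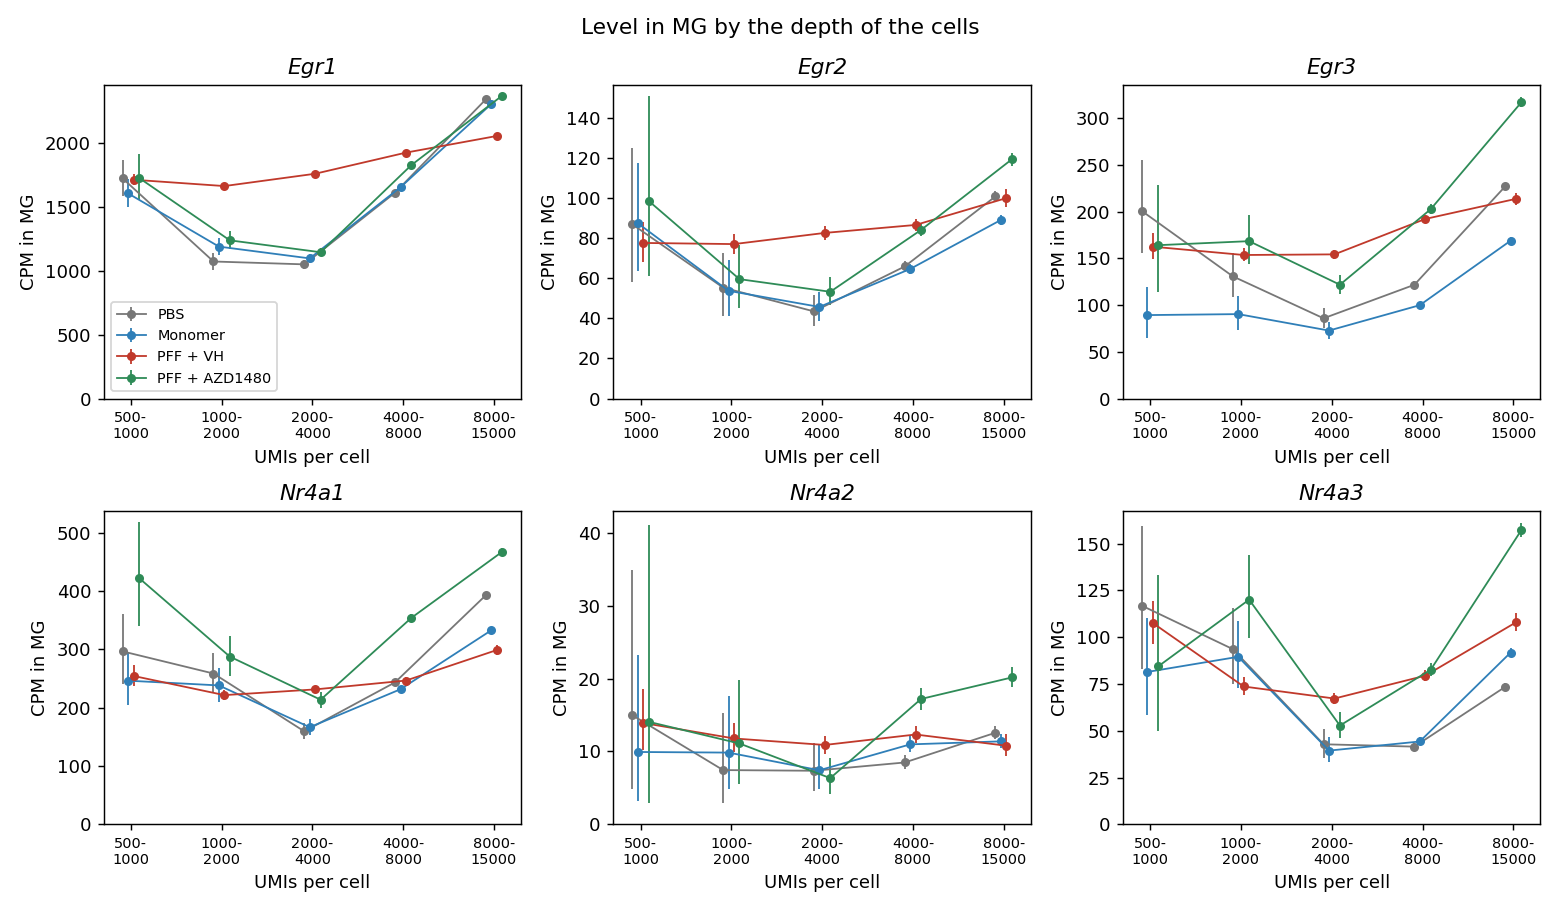
Level of each member in CPM in MG of 5 ranges of UMIs per cell, by library, with exact Poisson 95% intervals. Egr1 in PBS dips to 1050 CPM at 2000 to 4000 UMIs and reaches 2341 CPM at 8000 UMIs and over, while PFF + VH stays between 1663 and 2055 CPM.

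The hashtag test was therefore repeated within 3 ranges of depth, which was decided on after looking at the data, and its results differed between ranges. In MG of 2000 to 4000 UMIs, where 5.71% of 8621 genes were higher with AZD1480 and 5.64% lower, no member was higher. This range held 1265 to 2032 MG per PFF + VH hashtag, around the median depth there. It held 170 to 371 per PFF + AZD1480 hashtag, below the median depth there. Egr1 was lower with AZD1480, with means of 1146 ± 28.7 CPM in PFF + AZD1480 and 1705 ± 241 CPM in PFF + VH (SD) and a log2 difference of -0.52 ± 0.11 (edgeR adjusted p = 0.00304). By library, PBS with 1050 CPM and Monomer with 1097 CPM of Egr1 lay near PFF + AZD1480 in this range. Egr2 was lower as well, at 54.3 ± 6.53 against 82.0 ± 11.7 CPM (SD), a log2 difference of -0.55 ± 0.14 (edgeR adjusted p = 0.0144). Nr4a1 had 214 ± 20.5 CPM against 231 ± 36.3 CPM (SD), a log2 difference of -0.06 ± 0.11 (edgeR adjusted p = 0.791). Egr3 (-0.28), Nr4a2 (-0.80) and Nr4a3 (-0.54) did not pass.

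In MG of 4000 to 8000 UMIs, where 7.62% of 11948 genes were higher and 11.2% lower, Nr4a1 alone of the 6 members passed, with 359 ± 33.8 CPM in PFF + AZD1480 and 247 ± 43.8 CPM in PFF + VH (SD) and a log2 difference of 0.45 ± 0.11 (edgeR adjusted p = 0.0112). Egr1 (-0.15), Egr2 (-0.11), Egr3 (0.02), Nr4a2 (0.34) and Nr4a3 (-0.08) had adjusted p-values of 0.328 to 0.914. In MG of 8000 UMIs and over, where 2.86% of 11041 genes were higher and 4.84% lower, the 3 members of the test on all depths passed again. Nr4a1 had 484 ± 48.2 against 297 ± 48.0 CPM (SD), a log2 difference of 0.68 ± 0.11 (edgeR adjusted p = 0.0028). Egr3 had 329 ± 45.3 against 232 ± 35.0 CPM (SD), a log2 difference of 0.49 ± 0.11 (edgeR adjusted p = 0.0185). Nr4a3 had 161 ± 24.3 against 113 ± 21.1 CPM (SD), a log2 difference of 0.52 ± 0.13 (edgeR adjusted p = 0.0284). Of the 3 ranges tested, the rise of Nr4a1 was thus found in the middle and deepest, and the rises of Egr3 and Nr4a3 in the deepest only. MG under 2000 UMIs were not tested over hashtags. By library, Nr4a1 held 422 CPM in PFF + AZD1480 and 254 in PFF + VH at 500 to 1000 UMIs, and 288 and 222 at 1000 to 2000 UMIs. In the same order, Egr3 held 164 and 163, then 169 and 154 CPM. Nr4a3 held 84.5 and 108, then 120 and 73.7 CPM. The differences between ranges were not themselves tested.

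Depth differed in the other classes too. The median cell of a hashtag had 2832 to 3123 UMIs in MM of PFF + VH and 4169 to 6441 in MM of PFF + AZD1480, and in T/NK 2401 to 4157 UMIs against 5884 and 6352 in the hashtags used. Its part in the MM and T/NK values was not tested within ranges of depth.

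In MM, 3609 genes could be tested, of which 0.0831% were higher with AZD1480 and 0.36% lower, and none of the 6 members passed, although Nr4a3 did with no filter on low values (1.104, adjusted p = 0.00111). Nr4a3 held 179, 348, 471, 121 and 339 CPM in the PFF + AZD1480 hashtags and 131, 68.9, 133 and 192 CPM in the PFF + VH hashtags. The groups overlapped, as they did for each of the 6 members, while 2.49% of genes were apart and higher and 2.72% apart and lower, and the means were 292 ± 141 and 131 ± 50.1 CPM (SD), and the log2 difference was 1.09 ± 0.37 (edgeR adjusted p = 0.253). Nr4a1 held 839, 913, 625, 455 and 999 CPM against 627, 459, 393 and 551 CPM, a log2 difference of 0.57 ± 0.22 (edgeR adjusted p = 0.294). Egr2 (0.59, adjusted p = 0.333), Egr1 (0.40, adjusted p = 0.447), Egr3 (0.49, adjusted p = 0.641) and Nr4a2 (0.03, adjusted p = 0.997) were further from the threshold. At an unadjusted p under 0.05, Nr4a3, Nr4a1 and Egr2 passed, in edgeR and in DESeq2, and DESeq2 called no member after adjustment. The make-up of MM differed between the libraries, with 192 BAM and 54 Mono in PFF + VH and 251 BAM and 25 Mono in PFF + AZD1480. In BAM alone, the values were 0.82 for Nr4a1 (adjusted p = 0.174) and 0.97 for Nr4a3 (adjusted p = 0.415). Beyond that fit, the part of the mix in the MM values was not tested. Over all genes in MM, 450 passed at an unadjusted p under 0.05, and DESeq2 called 36 after adjustment.

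In T/NK, only PFF + AZD1480 hashtags 2 and 4 reached 10 cells, against all 4 of PFF + VH. The make-up of the class also differed, with 90 NK and 66 T cells in the PFF + VH library. The PFF + AZD1480 library had 16 NK and 70 T cells. The part of this mix in the T/NK values was not tested. Of 2589 genes tested, 0.657% were higher with AZD1480 and 1.16% lower, and none of the 4 members that could be tested passed, Egr2 and Egr3 being too low. Nr4a3 held 358 and 219 CPM in the PFF + AZD1480 hashtags, on 28 and 26 UMIs, and 65.1, 123, 137 and 103 CPM in the PFF + VH hashtags, on 4 to 16 UMIs. The groups did not overlap, which was also so for 12.4% of genes in this direction and 9.81% in the other, and the log2 difference was 1.28 ± 0.34 (edgeR adjusted p = 0.0685). It passed in 4 alternatives, with hashtags centred within cells (adjusted p = 0.0181), no minimum of cells (adjusted p = 0.0237), no filter on low values (adjusted p = 0.0464) and MULTIseqDemux calls (adjusted p = 0.0495), and moved away from the threshold with a stricter class rule (0.81, adjusted p = 0.577). It was the only member with an unadjusted p under 0.05, and DESeq2 called none (Nr4a3 adjusted p = 0.171). Nr4a1 (0.46, adjusted p = 0.722), Nr4a2 (0.37, adjusted p = 0.828) and Egr1 (-0.11, adjusted p = 0.958) did not pass. By library, Nr4a3 in T/NK was 219 CPM with PBS, 316 with Monomer, 97.0 with PFF + VH and 276 with PFF + AZD1480, and Nr4a2 was 404, 389, 179 and 302 CPM, both lowest in PFF + VH, where T/NK also had the most MG-marker RNA.

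The effect of AZD1480 was also compared between classes by an interaction term. In edgeR none of the 6 members passed, before or after adjustment, Egr2 and Egr3 having too few UMIs in T/NK to be read there, with the smallest adjusted p at 0.879 for MM against MG and 0.618 for T/NK against MG. The latter was that of Nr4a3, with a difference of 0.80 ± 0.47. Over all genes, 0.108% were higher and 0.0269% lower in the first interaction, and 0.202% and 0.296% in the second. A difference between classes in the response of these genes was therefore not detected at this depth.

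**Figure D4:**
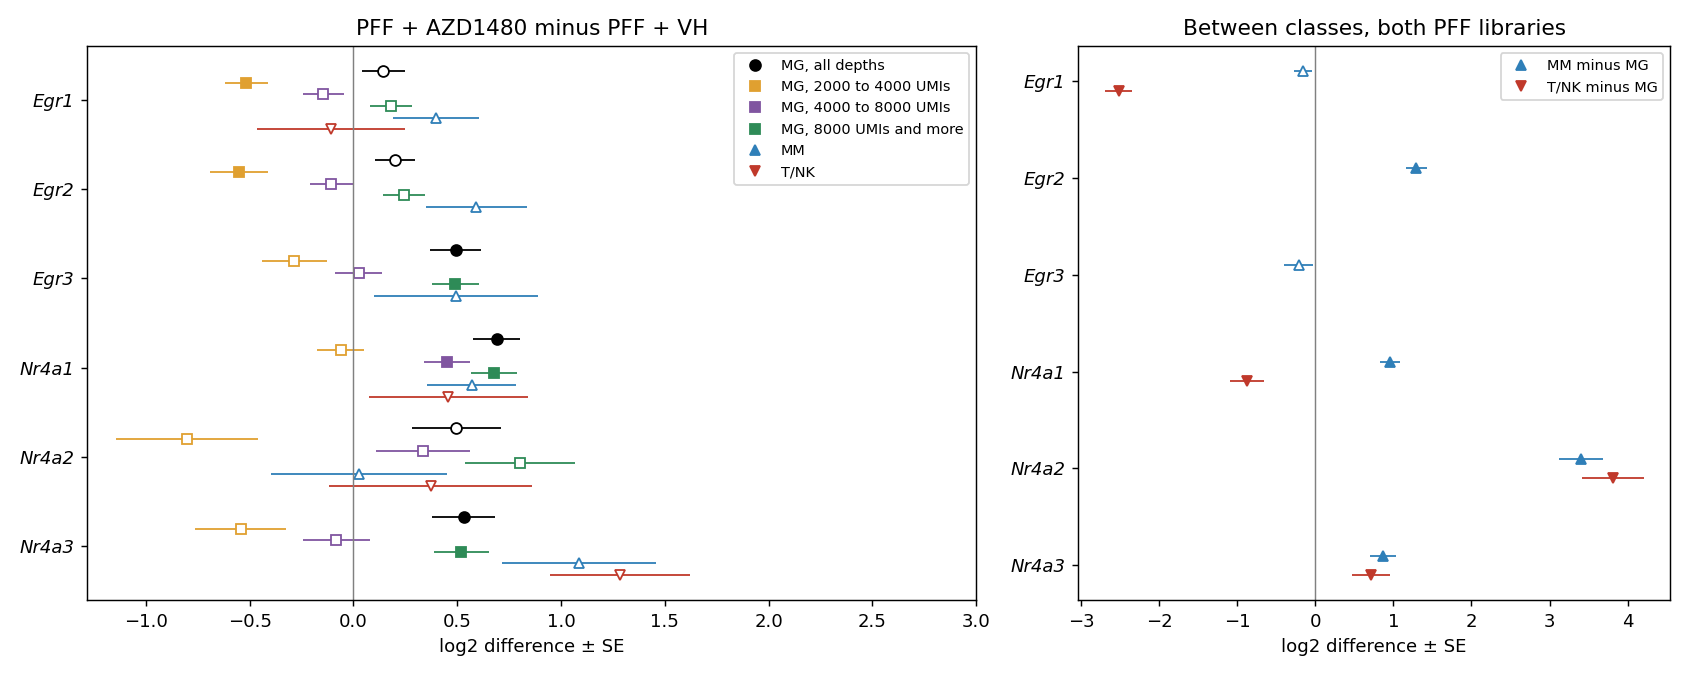
Left, the log2 difference of PFF + AZD1480 from PFF + VH with its SE for each member in MG of all depths, MG of 3 ranges of depth, MM and T/NK; right, the log2 difference of MM and of T/NK from MG. Filled points have an adjusted p under 0.05. In MG the values of Nr4a1 run from -0.06 at 2000 to 4000 UMIs to 0.68 at 8000 UMIs and over, and in T/NK Nr4a2 stands 3.81 above MG. No T/NK value is drawn for Egr2 and Egr3, which had too few UMIs there.

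Shares of MG with at least 1 UMI of a member were taken from cells thinned to 1000 UMIs. Thinning evens out the UMIs counted per cell but not the original depth, with which the levels of the members moved. It left out MG under 1000 UMIs, which were 4258 of 30829 in PFF + VH and 294 of 11248 in PFF + AZD1480. Nr4a1 was found in 24.8% ± 1.34 of MG in PFF + AZD1480 and 17.9% ± 2.14 in PFF + VH (SD over hashtags, n = 5 and 4), and the two-sided exact permutation test gave p = 0.0159, the smallest that the splits of 9 hashtags allow, and 0.0952 after adjustment over the 6 members. Egr3 was found in 16.1% ± 0.907 and 12.7% ± 2.38 (exact permutation p = 0.0476, adjusted 0.127). Neither passed after adjustment, which a single member at the smallest possible p could not do. With MULTIseqDemux calls Nr4a1 passed (a difference of 5.35 percentage points, exact permutation adjusted p = 0.0476), and so did Egr1 in the opposite direction (-7.32, adjusted p = 0.0476). Egr1 was found in 65.2% ± 2.51 and 68.6% ± 6.22, in the direction opposite to its CPM, so no order is read from it. Without thinning, where the UMIs counted per cell enter the shares as well, all members but Egr1 passed (exact permutation adjusted p = 0.0190), and the Nr4a1 shares were 55.4% and 37.4%. By library and without thinning, Nr4a2 had a UMI in 2.83% to 6.92% of MG and 30.6% to 53.6% of T/NK, and Egr1 in 80.2% to 88.1% of MG and 39.0% to 64.1% of T/NK.

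Within MG, the members were detected in the same cells more often than independent detection would give. In cells thinned to 1000 UMIs, the ratio of observed to expected cells was above 1 for all 15 pairs in each library. Nr4a2 with Nr4a3 had a ratio of 4.03 with PBS, 4.64 with Monomer, 2.31 with PFF + VH and 2.87 with PFF + AZD1480. Egr3 with Nr4a3 had 2.98, 3.13, 1.91 and 2.31, so for both pairs PFF + VH was lowest. Pairs with Egr1 are not ranked, because a gene found in most cells caps the ratio. Cells with none of the 6 members were 37.7%, 36.1%, 22.6% and 28.2% of the thinned MG in the same order. Pairs of other genes were not counted, so it is not known how many of them would also lie above 1. The cells of a library share their preparation, and these ratios are a description without a test.

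Among 5855 genes, the patterns over single MG most like Egr1 were those of Fos, with a mean Pearson r over the 4 libraries of 0.54 (0.42 to 0.64), Jun (0.51), Junb (0.50), Nfkbia (0.48) and Ier2 (0.46). Fos, Jun and Junb encode AP-1 subunits, and Nfkbia encodes the inhibitor of NF-kB that NF-kB itself induces. Nr4a1 was most like Egr1 (0.28), Nfkbia (0.27), Fos, Ier2 and Nfkbiz (each 0.26). Egr3 was most like Egr1 (0.22), Il1a, Btg2 and Nfkbiz (each 0.20) and Ier2 (0.19). For Egr2, Nr4a2 and Nr4a3 the largest mean r was 0.17 (Egr1), 0.07 (Nr4a3) and 0.14 (Egr3), too weak in sparse counts to be read.

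Genes around the members were counted from lists, in MG over hashtags at all depths, where 12.5% of all genes were higher with AZD1480 and 14% lower. At 2000 to 4000 UMIs these shares were 5.71% and 5.64%, at 4000 to 8000 UMIs 7.62% and 11.2%, and at 8000 UMIs and over 2.86% and 4.84%. Of 30 other early response genes, 2 rose with AZD1480, a share below that of all genes, Zfp36l1, an mRNA decay factor (0.36 ± 0.08, edgeR adjusted p = 0.00465), and the clock gene Per1 (0.34 ± 0.11, edgeR adjusted p = 0.0324). None fell, and the median log2 difference was 0.15, against 0.0026 over all genes. At 2000 to 4000 UMIs, none of 28 rose and 16 fell, beside 5.71% and 5.64% of all genes, with a median of -0.44. At 4000 to 8000 UMIs, 1 of 30 rose and 2 fell, and at 8000 UMIs and over 2 of 30 rose and none fell. Thus Egr1 and Egr2 fell in the same range of depth as many other early response genes.

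Of 10 partners of the 2 families, 5 rose and none fell, beside 12.5% and 14% of all genes. They included the nuclear receptor coactivators Ncoa2 (0.35 ± 0.05, edgeR adjusted p = 0.00044) and Ncoa3 (0.28 ± 0.05, edgeR adjusted p = 0.00236) and the EGR corepressor Nab1 (0.32 ± 0.07, edgeR adjusted p = 0.00393). Within the tested depth ranges, none, 2 and 2 of the 10 rose, from the shallowest tested to the deepest, beside 5.71%, 7.62% and 2.86% of all genes. Of 25 upstream factors and kinases, 14 rose, beside 12.5% of all genes, led by the calcium-responsive factor Nfatc2 (0.58 ± 0.06, edgeR adjusted p = 6.87e-05), Mef2d (0.34 ± 0.05), Nfatc1 (0.35 ± 0.06) and Mef2c (0.31 ± 0.05), and none fell. Within depth ranges 2 of 23, 6 of 25 and 2 of 24 rose, beside the same 5.71%, 7.62% and 2.86%.

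Of 11 ERK feedback genes tested at all depths, 1 passed, Spry1, an inhibitor of receptor tyrosine kinase signalling (0.74 ± 0.11, edgeR adjusted p = 0.000516). At 2000 to 4000 UMIs 1 of 9 fell, at 4000 to 8000 UMIs 1 of 10 rose and at 8000 UMIs and over 2 of 9 rose. Of 13 heat shock genes, which are also induced by handling, 1 fell, Hspe1 (-0.27, edgeR adjusted p = 0.0366), and none rose. At 2000 to 4000 UMIs 3 of them rose and 2 fell, at 4000 to 8000 UMIs 2 rose and 2 fell, and at 8000 UMIs and over none passed. Of 13 NF-kB early genes, 4 rose and none fell. They were the feedback inhibitors Tnfaip3 (0.63 ± 0.11, edgeR adjusted p = 0.00157) and Nfkbid (0.56 ± 0.14, edgeR adjusted p = 0.00985), the activation marker Cd83 (0.40 ± 0.08, edgeR adjusted p = 0.00445) and the chemokine Cxcl2 (0.63 ± 0.16, edgeR adjusted p = 0.0115). At 2000 to 4000 UMIs 7 of the 13 fell and none rose, at 4000 to 8000 UMIs 2 rose and none fell, and at 8000 UMIs and over 6 rose and none fell. Among genes that mark nuclear or ribosomal RNA, Gm42418 fell (-0.49) and AY036118 rose (0.18) in MG, and the part of RNA quality in the member values was not tested.

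Of the T cell activation genes, 6 could be tested in MG, of which Pdcd1 (-0.74), Cd69 (-1.12) and Lag3 (-0.43) fell and none rose. In the tested ranges of depth 1 of 2, 3 of 3 and 3 of 3 fell, from the shallowest tested to the deepest. By library, Cd69 was low in MG, at 9.25 CPM in PFF + VH and 4.66 in PFF + AZD1480. In the same order, NK markers in MG stood at 7.37 and 1.46 CPM and T cell markers at 12.4 and 8.38 CPM. The part of T and NK cell RNA in these falls was not tested.

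No gene of any list passed in MM, where the median was 0.53 for the members and 0.42 for the other early response genes. In T/NK, on PFF + AZD1480 hashtags of 13 and 21 cells, 6 T cell activation genes could be tested, beside 0.657% of all genes higher and 1.16% lower. The inhibitory receptor Ctla4, the costimulatory receptor Icos and the early activation marker Cd69 were called higher with AZD1480, and the costimulatory receptor Tnfrsf9 lower. A gene could enter this test by its level in 2 hashtags of the higher group alone. These calls are therefore a description, and no fold is given. The NF-kB early gene Ccl4 fell in T/NK (-1.39). MG held 5110 CPM of Ccl4 in PFF + VH, and MG-marker RNA in T/NK was at 2243 CPM with VH and 1403 CPM with AZD1480. The part of MG RNA in this fall and in the other T/NK values was not tested, nor was that of the mix of T and NK cells. No other early response gene passed there.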

How the data were processed

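Mouse midbrain CD45+ cells of 4 libraries were analysed. The deposited values are raw UMI counts, made by the authors from 10x 3′ libraries on mm10 by Cell Ranger (7.0.1 in the file headers), with hashtag counts in both PFF matrices, and they are not normalized. Cells with 500 to 15000 UMIs, 250 to 5000 genes and at most 10% mitochondrial UMIs were kept. No doublet caller was run, and cells with more than 1 hashtag entered library values but no replicate test.

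A cell joined MM, T/NK, B cells or neutrophils when at least 3 markers of that class had a UMI. It also needed at least 2 times as many detected markers as any other of these classes, and under 0.5% MG-marker UMIs. A cell joined MG with at least 3 MG markers, at least 0.5% MG-marker UMIs and fewer than 3 markers of every other class. These rules were set after the data were seen and left 6.73% to 9.91% of cells unassigned. Of the MG, 1.95% to 3.57% lay near a class limit, of MM 10% to 20.3% and of T/NK 0.483% to 13.9%. The members and the gene lists were chosen with earlier results of these data known.

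Hashtags were called with HTODemux (Seurat 5.3.0, positive quantile 0.99). Nothing in the labels ties a hashtag to an animal pool, so the p-values measure the spread between hashtags. Counts summed per class and hashtag (at least 10 cells) were tested with edgeR 4.0.16 in R 4.3.3 (quasi-likelihood test, TMM scaling, filterByExpr, Benjamini-Hochberg, threshold 0.05), and class differences in a joint fit with the hashtag as a block. The authors' own comparison used a Hurdle model on log2 normalized values. Other steps used Python 3.11.15, numpy 2.4.6, scipy 1.17.1 and pandas 2.3.3. Library values have exact Poisson 95% intervals, and the floor for 0 is 3 UMIs, both for counting error only. In simulated data, edgeR recovered 86.5% of 200 genes changed by 2-fold in MG, 61.5% in MM and 27% in T/NK.

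Named were the 6 members, at most 4 genes of a list by smallest adjusted p, and the 5 genes most like each member over MG detected in at least 2% of the cells. Alternatives were RLE scaling, DESeq2 1.42.0, low counts kept, a replicate block, other hashtag calls, other depths and class rules, and leaving out each hashtag. Added after the data were seen were hashtags centred within cells, a wider class rule, no minimum of cells, BAM alone and MG in ranges of depth.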

Additional observations from a re-analysis of the deposited data

Results flagged for a closer look

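Over 42 groups of hashtags, 4 held a value that stood apart from the rest by Dixon's criterion, which chance alone does in about 1 of 20 groups. Nr4a2 in MG of PFF + VH hashtag 3 was at 18.5 CPM, against 9.61 to 11.1 CPM in the others. Nr4a2 in MG of PFF + AZD1480 hashtag 5 was at 10.5 CPM, against 18.7 to 21.9 CPM. Egr3 in MM of PFF + VH hashtag 1 was at 308 CPM, against 102 to 134 CPM. Egr2 in T/NK of PFF + VH hashtag 1 was at 65.1 CPM on 4 UMIs, against 7.68 to 12.8 CPM.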

How the results depend on the processing

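In MG the rises of Nr4a1 and Egr3 passed in every alternative other than ranges of depth (log2 difference 0.55 to 0.80 and 0.40 to 0.63), while at 2000 to 4000 UMIs all members turned to negative values (Egr1 -0.52, Egr2 -0.55, Egr3 -0.28, Nr4a1 -0.061, Nr4a2 -0.80, Nr4a3 -0.54), as did Egr1 (-0.15), Egr2 (-0.11) and Nr4a3 (-0.083) at 4000 to 8000 UMIs. The cause was not tested. Nr4a3 was lost with MULTIseqDemux (0.44, edgeR adjusted p = 0.0540). Sums of 1 sample share a library, and the T/NK tests rest on 13 and 21 cells of PFF + AZD1480 hashtags and 20 to 42 cells per PFF + VH hashtag.

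The 3588 genes called in MG became 1519 with thinned cells and 978, 2254 and 850 in the 3 ranges of depth, and 2822 to 3290 without 1 hashtag. The 16 genes of MM became 36 with DESeq2, 114 with no filter, 25 with the replicate block, 4 with MULTIseqDemux, 3 and 6 with a stricter and a wider class, 5 in BAM alone and 4 to 14 without 1 hashtag. The 47 genes of T/NK became 122 with no filter, 27 at 1000 UMIs and over, 12 thinned, 31 and 82 with a stricter and a wider class, 121 with hashtags centred within cells and 13 to 63 without 1 hashtag. Thinning, which leaves fewer UMIs, gave 1151 genes between MM and MG in place of 3486, and 1205 between T/NK and MG in place of 3670. The 10 genes of the MM interaction became 51 with no filter, 5 with no replicate block, 3 thinned, 19 with a wider class and 6 to 15 without 1 hashtag, and the 37 of the T/NK interaction 98 with no filter, 24 at 1000 UMIs and over, 1 thinned, 4 with a stricter class and 5 to 40 without 1 hashtag.

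Hashtag numbers did not pair the samples (correlations of -0.014 to 0.071 between same-numbered hashtags, over deviations of log2 MG levels from their group means). With the number as a replicate block, Nr4a2 passed in MG (0.67, edgeR adjusted p = 0.0079) and turned to -0.34 in MM. Without 1 hashtag, Nr4a2 in MM ran from -0.26 to 0.48. In T/NK, Egr1 turned to 0.29 with a stricter class and ran from -0.62 to 0.34 without 1 hashtag, Nr4a1 from -0.43 to 0.89 and Nr4a2 from -1.43 to 1.02, with PFF + AZD1480 hashtags 2 and 4 setting the ends. Such a fit leaves 1 PFF + AZD1480 sum, which is assumed to vary like the others. Between MM and T/NK, Nr4a2 ran from -0.89 to 0.63, and Nr4a3 was -0.055 with a wider class. T/NK could not be fitted again without PFF + AZD1480 hashtags 1, 3 or 5, which were too small to enter.

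Unthinned shares of MG differed by 2.87 percentage points for Egr1, opposite to the thinned value, and by 12.03 for Egr2, 12.8 for Egr3, 18.05 for Nr4a1, 3.67 for Nr4a2 and 6.36 for Nr4a3, all 5 of which then passed. MULTIseqDemux gave -7.32 for Egr1 and 5.35 for Nr4a1, which then passed, and -0.16 for Egr2, and without 1 hashtag Nr4a2 ran from -0.036 to 0.394.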
